A study of Homo sapiens with 22 samples.

Results

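The genes described here are those of the YAP and TEAD transcription system: the coactivators YAP1 and WWTR1 (which encodes TAZ), the DNA-binding partners TEAD1, TEAD2, TEAD3 and TEAD4, and the target genes ANKRD1, AMOTL2, AXL and F3. They were taken by symbol and make up 10 of the 26485 genes counted in each library, 6 effectors and 4 targets. All 10 passed the filter on low counts in every comparison. The 22 RNA-seq libraries are all labelled MDA-MB231, a long-established triple-negative line of human breast cancer. They come from 3 experiments. In the Nexturastat experiment, cells without genetic change received 7.65 µM Nexturastat A (n = 2), a hydroxamate inhibitor of the deacetylase HDAC6, or DMSO (the group Ctrl, n = 2), and were sampled at day 2. In the knockdown experiment, cells carried the hairpin shHDAC6-1 or shHDAC6-2 against HDAC6, or the control hairpin shCtrl (n = 3 each, day 0). In the last experiment, cells without genetic change received HPOB or Tubastatin A, further inhibitors of HDAC6, or DMSO (n = 3 each, day 2), at doses that no source used here gives. Titles of the Tubastatin A samples carry the abbreviation TSA while their treatment label reads Tubastatin A, and the label is followed here. Nothing in the labels says whether replicates came from separate cultures, so p-values measure the spread between these libraries, which may be technical. In RNA from whole cultures, fewer cells of a kind and less RNA per cell cannot be told apart.

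YAP and TAZ do not bind DNA themselves. They enter the nucleus and act through TEAD factors, which recognise the short MCAT element. In the Hippo pathway the kinase MST activates the kinase LATS, which phosphorylates YAP and TAZ and so holds them in the cytoplasm. The activity of YAP and TAZ is set largely by location and phosphorylation, which mRNA counts do not measure. Among the targets, ANKRD1 encodes an ankyrin repeat protein best known as a stress-induced regulator in muscle, AMOTL2 a junctional scaffold of the angiomotin family that binds YAP and restrains it, AXL a receptor tyrosine kinase, and F3 tissue factor, the cell-surface protein that starts blood coagulation. MDA-MB231 is widely used as a line with active YAP and TAZ.

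The core letters of the MCAT element, GGAATG, were searched on both strands (CATTCC is the reverse complement) in the 250 bases before the start of each gene, in RefSeq promoters of GRCh38.p14. Promoters were at hand for 8 members (TEAD1 and TEAD4 were not used here), in 12 windows, since some genes have more than one start. The letters occurred in 4 of the 12 windows, those of ANKRD1, YAP1, AMOTL2 and AXL, and in 11.89% of 35116 promoters over the genome. ANKRD1, the member whose level moved most between libraries, held 2 matches in its single window, and F3 held 0. The matches are shown with their flanks because they are the letters through which TEAD factors are known to bind. They are written 5′ to 3′ on the strand of the gene with the matched letters in capitals. A match is a description and not evidence of binding.
ANKRD1, 220 bases before the start: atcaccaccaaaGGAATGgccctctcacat
ANKRD1, 128 bases before the start: gacactgagtctGGAATGaaaattcacctg
YAP1, 162 bases before the start: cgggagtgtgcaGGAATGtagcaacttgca
AMOTL2, 69 bases before the start: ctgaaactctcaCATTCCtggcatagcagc
AXL, 212 bases before the start: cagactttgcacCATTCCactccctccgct
The ANKRD1 stretches lie on the minus strand at chr10:90921290-90921319, outside the gene, and chr10:90921198-90921227, inside its exon as GENCODE 29 draws it. The YAP1 stretch lies on the plus strand at chr11:102110273-102110302, outside the gene. The AMOTL2 stretch lies before the second RefSeq start of that gene, on the minus strand at chr3:134374499-134374528, in an exon. The AXL stretch also lies before a second start, on the plus strand at chr19:41226531-41226560, in an intron.

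The libraries did not form one stock of cells. Log2 CPM (counts per 1000000 counts of the library) correlated across genes with Ctrl at 0.704 to 0.720 for shCtrl replicates 1 and 2, at 0.957 to 0.966 for shCtrl replicate 3 and at 0.821 to 0.831 for DMSO. In replicates 1 and 2 of all 3 hairpin groups, 10 marker genes that MDA-MB231 is known to express (VIM, CD44 and others) summed to 1179 to 1316 CPM, against at least 4810 CPM in every other library. The cell cycle inhibitor CDKN2A, which MDA-MB231 has lost, stood there at 140 to 184 CPM, and the kidney-line gene IRS4 at 337 to 679 CPM. Both were at 0 in Ctrl, DMSO and shCtrl replicate 3, and at 7.11 and 7.31 CPM (shHDAC6-1) and 24.1 and 22.3 CPM (shHDAC6-2) in replicate 3 of the HDAC6 hairpins. Ctrl differed from DMSO in the sum of 6 lung epithelium markers, which was 10.4 to 11.7 CPM in DMSO and 222 to 330 CPM in Ctrl. The sum does not show which genes carry it, and SFTPD was at 0 in Ctrl but not in DMSO. Replicate 3 of shHDAC6-1 and shHDAC6-2 also stood apart from its own control, correlating with shCtrl replicate 3 at 0.741 and 0.731 and with each other at 0.983. Replicates 1 and 2 of the knockdown experiment were therefore described apart from replicate 3, and stocks are named by experiment. Library totals were 31.2 to 85.9 M counts (1 M is 1000000).

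**Figure D1:**
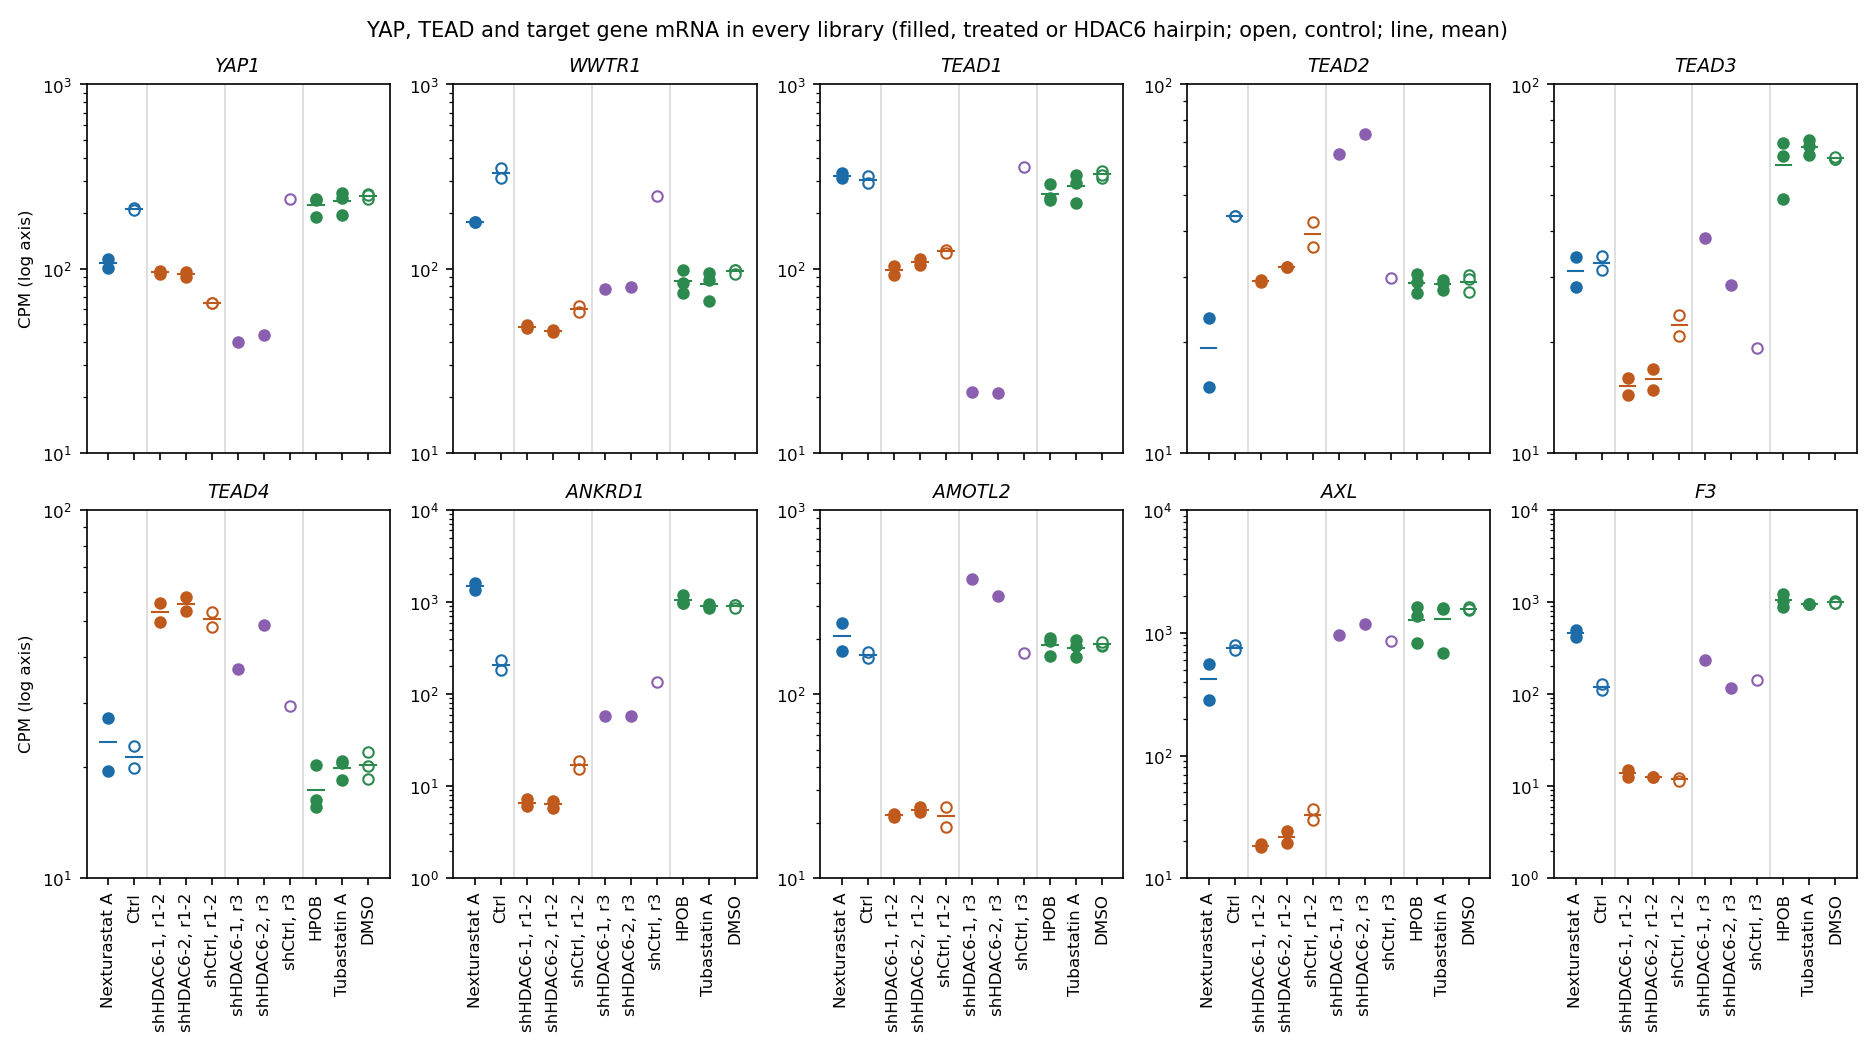
mRNA of the 10 genes in each of the 22 libraries, as CPM on log axes that differ between panels. Each point is a library, filled for treated or HDAC6 hairpin cells and open for controls, with r1-2 and r3 for replicates 1 and 2 and for replicate 3 of the knockdown experiment. Lines are group means. ANKRD1, AMOTL2, AXL and F3 were at 5.79 to 36.4 CPM in the 6 knockdown libraries of replicates 1 and 2 and at 58.1 CPM or more in every other library.

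The targets varied more between libraries than the effectors did. Between the lowest and the highest library, ANKRD1 spanned 279-fold, F3 107-fold, AXL 90.7-fold and AMOTL2 22.3-fold. TEAD1 spanned 16.9-fold, WWTR1 7.82-fold, YAP1 6.45-fold, TEAD3 4.93-fold, TEAD2 4.85-fold and TEAD4 3.71-fold. Most of the span of the targets lay between stocks, in the control cells already.

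Levels of different genes are compared as CPM per kilobase of the longest coding transcript (GENCODE 29). In shCtrl replicates 1 and 2, the 4 targets together stood at 25.5 and 25.9 CPM per kb and the 4 TEAD genes at 65.1 and 71.0, a ratio of targets to TEADs of 0.391 and 0.364. In DMSO the targets stood at 1239 to 1300 CPM per kb and the TEAD genes at 80.9 to 85.6, a ratio of 14.8 to 15.7. In Ctrl the targets stood at 344 and 363 CPM per kb and the TEAD genes at 78.7 and 76.3, a ratio of 4.37 and 4.76. The single library shCtrl replicate 3, at 4.45, was close to Ctrl. The summed TEAD level thus spanned 65.1 to 85.6 CPM per kb over these control libraries while the summed target level spanned 25.5 to 1300. Divided by the length of all exons of a gene instead, the ratio was 0.436 and 0.400 in shCtrl replicates 1 and 2, 15.7 to 16.6 in DMSO and 4.75 and 5.22 in Ctrl.

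**Figure D2:**
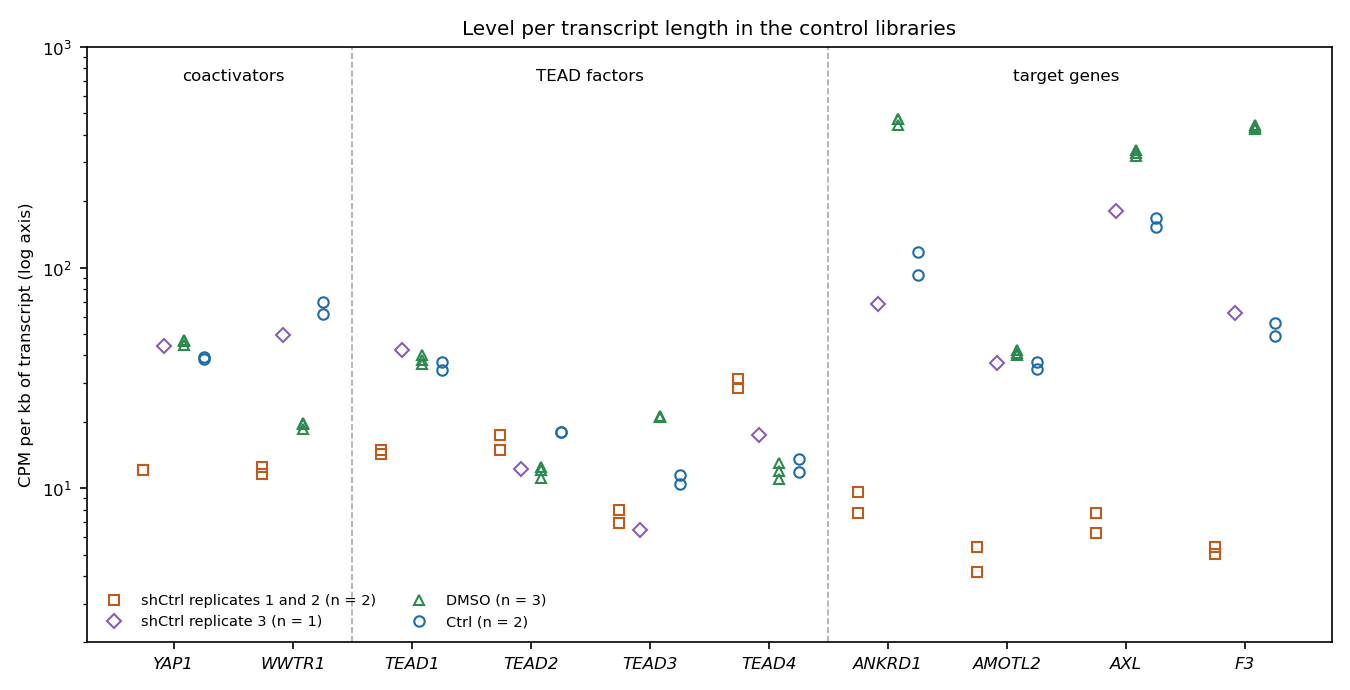
Level of each gene in the control libraries as CPM per kilobase of the longest coding transcript, on a log axis. Squares are shCtrl replicates 1 and 2, diamonds shCtrl replicate 3, triangles DMSO and circles Ctrl, 1 symbol per library. In shCtrl replicates 1 and 2 every target lies under 10.0 CPM per kb, while in DMSO ANKRD1, F3 and AXL lie between 321 and 473.

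The make-up of the effectors differed between stocks as well. YAP1 made up 49.2% and 51.0% of the coactivator level per kb in shCtrl replicates 1 and 2, 69.4% to 71.4% in DMSO and 36.0% and 38.6% in Ctrl. Per length of all exons these shares were 58.1% and 59.9%, 76.5% to 78.2%, and 44.7% and 47.4%. Among the TEAD genes, TEAD4 led in shCtrl replicates 1 and 2 with 43.6% and 44.1%. TEAD1 led in DMSO with 45.4% to 46.9% and in Ctrl with 47.5% and 44.9%. TEAD3 made up 24.6% to 26.0% of the TEAD level in DMSO and 14.5% and 13.8% in Ctrl. In shCtrl replicates 1 and 2 the order of group means was TEAD4, TEAD2, TEAD1, YAP1, WWTR1, ANKRD1, TEAD3, AXL, F3 and AMOTL2. There TEAD4 at 28.4 and 31.4 CPM per kb stood clear of the rest, while neighbours from TEAD2 down overlapped except TEAD1 and YAP1, WWTR1 and ANKRD1, and AXL and F3. Per length of all exons the order of WWTR1 and ANKRD1 turned, with WWTR1 at 7.44 and 6.91 and ANKRD1 at 9.62 and 7.73 CPM per kb. In DMSO the order was ANKRD1, F3, AXL, YAP1, AMOTL2, TEAD1, TEAD3, WWTR1, TEAD4 and TEAD2. ANKRD1 and F3 overlapped there (442 to 473 and 424 to 444 CPM per kb), and TEAD4 and TEAD2 overlapped too. In Ctrl the order was AXL, ANKRD1, WWTR1, F3, YAP1, AMOTL2, TEAD1, TEAD2, TEAD4 and TEAD3. The ranges of YAP1, AMOTL2 and TEAD1 lay within 34.3 to 39.4 CPM per kb there, with TEAD1 and AMOTL2 overlapping. Per length of all exons TEAD3 stood above TEAD4 in Ctrl, at 11.2 and 10.3 against 8.80 and 10.1 CPM per kb. On that scale WWTR1 (41.9 and 36.7) and F3 (39.1 and 44.4) overlapped in Ctrl.

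The differences between control stocks were tested with edgeR's quasi-likelihood test, and a gene is described as called at a Benjamini-Hochberg adjusted p under 0.05 over all genes tested. Cells and experiment cannot be told apart in these comparisons. Against DMSO, shCtrl replicates 1 and 2 had 8 of the 10 genes called lower and 2 called higher, where 34.7% of 17976 genes were called lower and 42.5% higher (77.2% either way), so that being called says little. F3 stood at 12.4 and 11.5 CPM in shCtrl replicates 1 and 2, against 970 to 1016 CPM in DMSO (log2 fold change -6.54 ± 0.11, SE). ANKRD1 stood at 19.0 and 15.3 CPM in shCtrl replicates 1 and 2, against 874 to 937 CPM in DMSO (-5.90 ± 0.13). The corresponding values were -5.73 ± 0.12 for AXL and -3.26 ± 0.11 for AMOTL2. The effectors differed less, from -2.09 ± 0.08 for YAP1 to 1.16 ± 0.11 for TEAD4. The 10 genes had a median log2 fold change of -1.88, beside 0.13 over all genes. Fold changes of all genes rose with the share of G and C bases in the transcript, the GC content (rank correlation across genes 0.173). Genes within 1 percentage point of TEAD4's GC content had a median of 0.54. For such genes of TEAD2 (0.28) the median was 0.33, and for those of TEAD3 (-1.66) it was 0.45.

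Against Ctrl, shCtrl replicates 1 and 2 had 9 genes called lower and 1 higher (34.9% and 41.5% of all genes, 76.5% either way). AXL stood at 29.6 and 36.4 CPM in shCtrl replicates 1 and 2, against 794 and 724 CPM in Ctrl (-4.69 ± 0.11). ANKRD1 (-3.77 ± 0.12), F3 (-3.50 ± 0.10) and AMOTL2 (-3.08 ± 0.12) also fell, as did WWTR1 (-2.62 ± 0.09), YAP1 (-1.86 ± 0.08) and TEAD1 (-1.46 ± 0.09). TEAD4 alone was higher, at 48.0 and 53.0 CPM in shCtrl replicates 1 and 2 against 19.98 and 22.8 CPM in Ctrl (1.07 ± 0.12). The medians were -2.24 over the 10 genes and 0.14 over all genes. Fold changes rose with GC content here too (rank correlation across genes 0.289). Genes within 1 percentage point of TEAD4's GC content had a median of 0.74, beside 1.07 for TEAD4. For such genes of TEAD2 and TEAD3, which were called lower, the medians were 0.47 and 0.61. TEAD2, called lower against Ctrl (-0.33 ± 0.11) and higher against DMSO (0.28 ± 0.10), lost the first call without shCtrl replicate 1 (-0.20) or Ctrl replicate 2 (-0.32) or at a mean CPM of at least 5 (-0.21) and the second without shCtrl replicate 2 (0.13) or DMSO replicate 3 (0.22).

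DMSO against Ctrl sets the control cells of the 2 inhibitor experiments side by side, and 5 of the 10 genes were called higher and 2 lower (30.6% and 32.3% of all genes, 62.9% either way). F3 stood at 1016, 990 and 970 CPM in DMSO, against 112 and 128 CPM in Ctrl (3.04 ± 0.09). ANKRD1 stood at 937, 936 and 874 CPM in DMSO, against 183 and 232 CPM in Ctrl (2.13 ± 0.11). AXL (1.04 ± 0.09), TEAD3 (0.94 ± 0.10) and YAP1 (0.23 ± 0.08) were higher too. In contrast, WWTR1 stood at 98.1, 98.8 and 93.8 CPM in DMSO against 352 and 309 CPM in Ctrl (-1.78 ± 0.08), and was lower, as was TEAD2 (-0.61 ± 0.10). AMOTL2 (0.18, 95% interval -0.02 to 0.38), TEAD1 (0.09, -0.07 to 0.25) and TEAD4 (-0.09, -0.33 to 0.14) were not called. The YAP1 call was lost without Ctrl replicate 2, DMSO replicate 1 or DMSO replicate 3 (log2 fold changes 0.22, 0.21 and 0.22). With trends on GC content and length removed, TEAD1 was called higher (0.32) and TEAD4 lower (-0.31), and AMOTL2 was called higher without shCtrl replicate 1 or 2 (0.18 and 0.17).

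Of the pathway's other genes, listed as regulators of Hippo and YAP (34 genes) and other YAP targets (18 genes in the files, 2 of them also on the first list), the targets moved like the 4 above between the knockdown stock and DMSO. In shCtrl replicates 1 and 2 against DMSO, 16 of the 18 other targets were called lower and 2 higher, with a median log2 fold change of -2.16 beside 0.13 over all genes. The growth factor TGFB2 (-6.52 ± 0.13), the membrane repair protein MYOF (-5.31 ± 0.10) and, among regulators, the scaffold WWC3 (-5.48 ± 0.11) were the lowest. AMOT, the angiomotin that founds the family of AMOTL2, was high instead, with 843 and 919 CPM in shCtrl replicates 1 and 2, against 1.302 to 2.66 CPM in DMSO (8.82 ± 0.16). Against Ctrl, 13 other targets were lower and 3 higher in shCtrl replicates 1 and 2. WWC1, the Hippo activator KIBRA, stood at 79.3 and 88.6 CPM in shCtrl replicates 1 and 2 and 122 to 128 CPM in DMSO, against 1.13 and 1.27 CPM in Ctrl. Of the regulators 25 were lower and 6 higher in shCtrl against DMSO, 20 and 10 in shCtrl against Ctrl, and 10 lower and 18 higher in DMSO against Ctrl, out of 33 tested. In DMSO against Ctrl 5 of the 18 other targets were lower and 11 higher. Called either way were 77.2%, 76.5% and 62.9% of all genes in these 3 comparisons. The transcription cofactor VGLL2 was at 0.904 and 1.74 CPM in shCtrl replicates 1 and 2 and 0.803 to 1.60 CPM in DMSO, against 0 in Ctrl.

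With Nexturastat A both coactivators fell and 2 of the targets rose. YAP1 stood at 101 and 113 CPM with Nexturastat A, against 213 and 208 CPM in Ctrl, a log2 fold change of -1.07 ± 0.12 (SE, edgeR adjusted p = 0.00195). WWTR1 stood at 180 and 179 CPM with Nexturastat A, against 352 and 309 CPM in Ctrl (-0.97 ± 0.13, edgeR adjusted p = 0.00272). For both genes each treated library lay under each control library, at about the same distance. ANKRD1 rose to 1342 and 1615 CPM with Nexturastat A, against 183 and 232 CPM in Ctrl (2.74 ± 0.19, edgeR adjusted p = 0.00039). F3 rose to 420 and 498 CPM with Nexturastat A, against 112 and 128 CPM in Ctrl (1.85 ± 0.15, edgeR adjusted p = 0.000657). So 5 of the 10 genes were called, 2 higher and 3 lower, where 36.6% of 16678 genes were called, 21.1% higher and 15.5% lower. The medians were -0.09 over the 10 genes and 0.03 over all genes.

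The remaining call with Nexturastat A was TEAD2, at 15.1 and 23.3 CPM with Nexturastat A against 44.0 and 43.9 CPM in Ctrl (-1.28 ± 0.22, edgeR adjusted p = 0.00581). The treated libraries differed from each other, yet both lay under Ctrl. TEAD1, the most abundant TEAD in these cells, was not called, at 329 and 309 CPM with Nexturastat A against 317 and 291 CPM in Ctrl (-0.02, 95% interval -0.31 to 0.27). TEAD3 (-0.16, -0.53 to 0.21) and TEAD4 (0.04, -0.44 to 0.52) were not called either. The TEAD2 share of the TEAD level per kb was 9.37% and 12.95% with Nexturastat A, against 22.9% and 23.6% in Ctrl. Targets to TEADs stood at 14.5 and 16.4 per kb with Nexturastat A, against 4.37 and 4.76 in Ctrl. Of the targets ANKRD1 and F3 were called higher, and AXL and AMOTL2 were not called. The lung epithelium markers also differed in sum, at 38.9 to 45.3 CPM with Nexturastat A against 222 to 330 CPM in Ctrl. Of them SFTPD was at 0 in Ctrl but not with Nexturastat A. The part of these markers in the changes above was not tested. HDAC6 itself was not called (-0.19 ± 0.14, edgeR adjusted p = 0.328).

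AXL stood at 284 and 553 CPM with Nexturastat A, against 794 and 724 CPM in Ctrl (-0.95 ± 0.32, edgeR adjusted p = 0.0656). Both treated libraries were lower, but they lay far apart from each other, and the gene did not pass the test. With the replicate block AXL was called lower (-1.025, edgeR adjusted p = 0.0291). It was called by DESeq2 (adjusted p = 0.00506), with trends on GC content and length removed (adjusted p = 0.0375) and without either Nexturastat A library (log2 fold changes -0.54 and -1.52). AMOTL2 stood at 171 and 244 CPM with Nexturastat A, against 157 and 170 CPM in Ctrl (0.25, 95% interval -0.18 to 0.68), and was not called. It was called without Nexturastat A replicate 1 (0.49, edgeR adjusted p = 0.00731) and had the other sign without Nexturastat A replicate 2 (-0.04, edgeR adjusted p = 0.797).

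Among the other genes of the pathway, 6 of 32 regulators tested were higher with Nexturastat A and 9 lower, and 4 of 18 other targets were higher and 6 lower, where 21.1% of all genes were called higher and 15.5% lower. WWC1 rose to 17.9 and 18.2 CPM with Nexturastat A, against 1.13 and 1.27 CPM in Ctrl (3.82 ± 0.22, edgeR adjusted p = 0.000324). The transcription cofactor VGLL3, which binds TEAD factors, rose as well (1.54 ± 0.20), as did the growth factor binding protein IGFBP3 (1.90 ± 0.18). The Hippo kinase LATS1 fell (-1.16 ± 0.18), and so did the upstream kinase TAOK1 (-1.14 ± 0.16) and the forkhead factor FOXF2 (-1.56 ± 0.26). CYR61 and CTGF, the matricellular proteins most used as readouts of YAP, are on the list of other targets but outside the rule for named genes, and were added after their values were seen. CYR61 stood at 3094 and 4015 CPM with Nexturastat A, against 1337 and 1350 CPM in Ctrl (1.31 ± 0.17, edgeR adjusted p = 0.00278). CTGF stood at 1257 and 1766 CPM with Nexturastat A, against 464 and 544 CPM in Ctrl (1.49 ± 0.19, edgeR adjusted p = 0.00268).

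**Figure D3:**
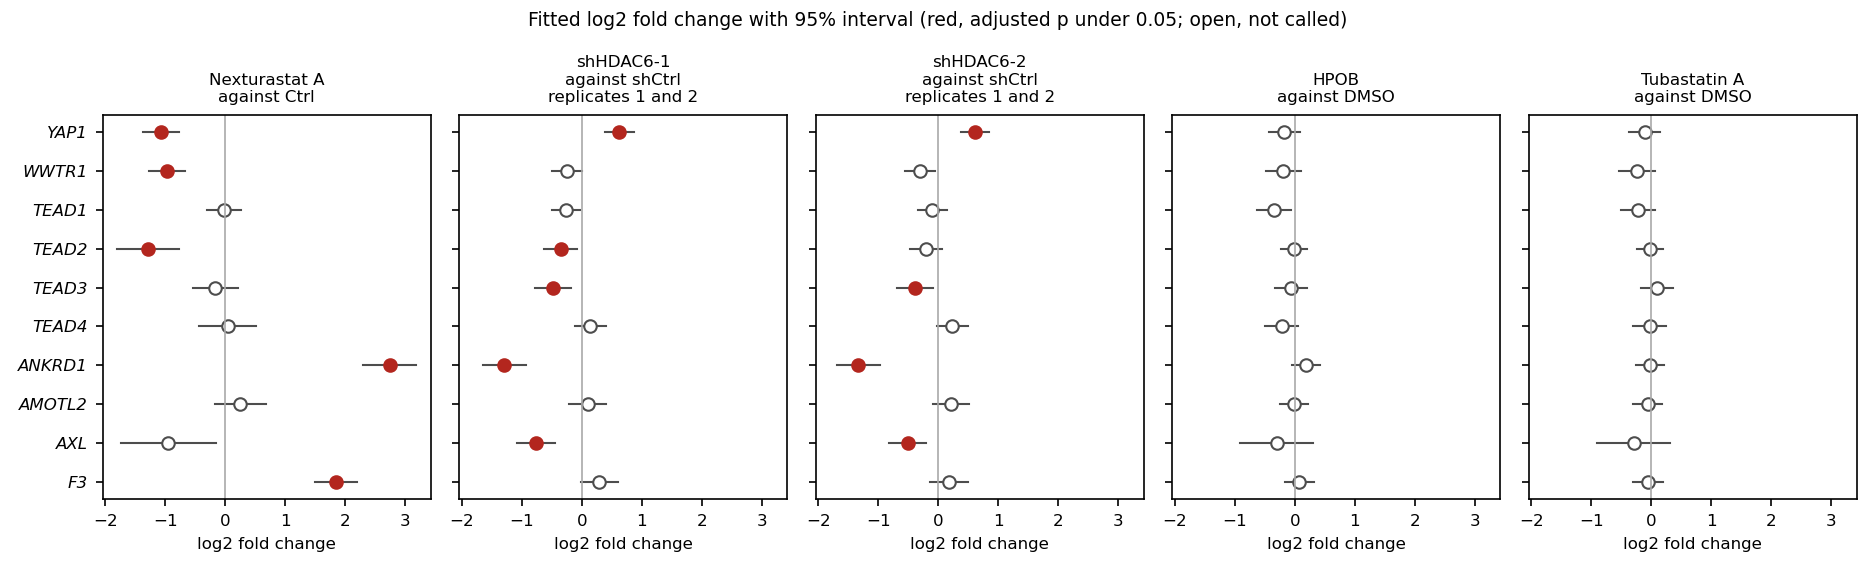
Fitted log2 fold change of each gene (point) with its 95% interval (line) in 5 comparisons on 1 scale, red where the adjusted p was under 0.05 and open where it was not. With Nexturastat A, YAP1 (-1.07) lies left of 0 and ANKRD1 (2.74) right of it. With both HDAC6 hairpins in replicates 1 and 2, YAP1 (0.63 and 0.61) lies right of 0 and ANKRD1 (-1.29 and -1.33) left of it, and with HPOB and Tubastatin A no gene is called.

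The knockdown was checked by HDAC6 itself. It stood at 11.8 and 12.6 CPM with shHDAC6-1 and at 12.2 and 13.6 CPM with shHDAC6-2 in replicates 1 and 2, against 47.8 and 54.6 CPM in shCtrl (log2 fold changes -1.99 ± 0.14 and -1.90 ± 0.14). Both hairpins share the same 2 shCtrl libraries, so their comparisons are not independent of each other. All values of this comparison come from the stock of cells with CDKN2A and IRS4, in which the targets were low.

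In that stock YAP1 was higher and ANKRD1 and AXL were lower with either hairpin. YAP1 stood at 97.2 and 93.5 CPM with shHDAC6-1 and 96.1 and 90.3 CPM with shHDAC6-2, against 65.1 and 65.0 CPM in shCtrl (0.63 ± 0.11, edgeR adjusted p = 0.000212, and 0.61 ± 0.11, edgeR adjusted p = 0.00029). ANKRD1 stood at 7.20 and 6.11 CPM with shHDAC6-1 and 6.97 and 5.79 CPM with shHDAC6-2, against 19.0 and 15.3 CPM in shCtrl (-1.29 ± 0.17, edgeR adjusted p = 5.81e-06, and -1.33 ± 0.17, edgeR adjusted p = 3.72e-06). AXL stood at 19.1 and 17.9 CPM with shHDAC6-1 and 19.4 and 24.1 CPM with shHDAC6-2, against 29.6 and 36.4 CPM in shCtrl (-0.76 ± 0.15, edgeR adjusted p = 0.000484, and -0.51 ± 0.15, edgeR adjusted p = 0.0135). The hairpin libraries lay clear of the shCtrl libraries for each of these genes. Marker sums moved with the hairpins too: 6 fetal and kidney-line genes summed to 936 to 1133 CPM with shHDAC6-1 and 1158 to 1233 CPM with shHDAC6-2, against 732 to 804 CPM in shCtrl. The 6 lung epithelium markers summed to 15.2 to 15.4 CPM with shHDAC6-1 and 15.3 to 18.2 CPM with shHDAC6-2, against 25.2 to 29.7 CPM in shCtrl. The part of either in the changes of YAP1, ANKRD1 and AXL was not tested. The AXL call with shHDAC6-2 was lost without shCtrl replicate 2 (-0.35) or shHDAC6-2 replicate 1 (-0.37).

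TEAD3 stood at 15.9 and 14.3 CPM with shHDAC6-1 and 14.8 and 16.9 CPM with shHDAC6-2, against 20.7 and 23.7 CPM in shCtrl (-0.48 ± 0.15 and -0.39 ± 0.15, edgeR adjusted p = 0.0165 and adjusted p = 0.0494). TEAD2 stood at 29.1 and 29.4 CPM with shHDAC6-1 and 31.9 and 31.9 CPM with shHDAC6-2, against 36.2 and 42.4 CPM in shCtrl, and was called with shHDAC6-1 (-0.35 ± 0.13, edgeR adjusted p = 0.0471) but not with shHDAC6-2 (-0.21, 95% interval -0.48 to 0.06). In all, shHDAC6-1 had 1 gene higher and 4 lower, and shHDAC6-2 had 1 higher and 3 lower, where 15.3% of 17702 genes were called higher and 15.2% lower with shHDAC6-1 (30.5% either way) and 14.4% higher and 13.2% lower with shHDAC6-2 (27.6% either way). The medians over the 10 genes were -0.25 and -0.15, beside -0.02 and 0.00157 over all genes. WWTR1, TEAD1, TEAD4, AMOTL2 and F3 were not called with either hairpin, with 95% intervals that together ran from -0.55 (WWTR1 with shHDAC6-2) to 0.61 (F3 with shHDAC6-1). The intervals of TEAD1 with shHDAC6-1 (-0.50 to -0.02) and WWTR1 with shHDAC6-2 (-0.55 to -0.06) were wholly negative. At a mean CPM of at least 5 both were called lower, TEAD1 at -0.32 (edgeR adjusted p = 0.0347) and WWTR1 at -0.35 (edgeR adjusted p = 0.0238). WWTR1 was also called lower with shHDAC6-2 by DESeq2 (-0.31, adjusted p = 0.0289).

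In these comparisons the fold changes of all genes moved with GC content (rank correlation across genes -0.378 with shHDAC6-1 and -0.270 with shHDAC6-2). TEAD2, TEAD3 and TEAD4 have transcripts of 58.4% to 60.4% GC, and YAP1, WWTR1, TEAD1, ANKRD1 and F3 of 40.9% to 43.7%. With trends on GC content and length removed from each library, the calls of YAP1, ANKRD1 and AXL stood, and those of TEAD2 (-0.15) and TEAD3 (-0.24 and -0.23) were lost. WWTR1 (-0.45 and -0.48) and TEAD1 (-0.43 and -0.32) were then called lower, and TEAD4 (0.36 and 0.45) and AMOTL2 (0.29 and 0.27) higher, which makes 7 of 10 genes with each hairpin. The TEAD2 and TEAD3 calls with shHDAC6-1 were also lost without shCtrl replicate 2 (-0.22 and -0.36) and without either shHDAC6-1 library (-0.32 and -0.53 without replicate 1, -0.36 and -0.40 without replicate 2). The TEAD2 call was lost with DESeq2 size factors in edgeR (-0.34, adjusted p = 0.0534) and with no filter on low counts (-0.34, adjusted p = 0.0511). The TEAD3 call with shHDAC6-2 was lost without shCtrl replicate 2 (-0.29), either shHDAC6-1 library (-0.40 and -0.40) or shHDAC6-2 replicate 1 (-0.31), and with the 2 groups fitted alone (-0.39).

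Between the hairpins, shHDAC6-2 against shHDAC6-1, 0 of 17702 genes passed by edgeR or DESeq2 (0%), and 1107 had an edgeR p below 0.05 before adjustment. The log2 fold changes of the 10 genes ran from -0.12 (F3) to 0.26 (AXL, 95% interval -0.05 to 0.57). YAP1 made up 64.4% to 66.5% of the coactivator level per kb with the HDAC6 hairpins, against 49.2% and 51.0% in shCtrl. TEAD4 made up 49.96% to 54.3% of the TEAD level with the HDAC6 hairpins, against 43.6% and 44.1% in shCtrl. Targets to TEADs stood at 0.289 to 0.309 with the HDAC6 hairpins, against 0.391 and 0.364 in shCtrl.

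Among regulators, 6 of 33 tested were higher and 4 lower with shHDAC6-1, and 9 higher and 3 lower with shHDAC6-2. Of 18 other targets, 4 were higher and 6 lower with shHDAC6-1, and 6 higher and 4 lower with shHDAC6-2. Over all genes 30.5% were called with shHDAC6-1 and 27.6% with shHDAC6-2. CYR61 stood at 116 and 121 CPM with shHDAC6-1 and 107 and 118 CPM with shHDAC6-2, against 256 and 257 CPM in shCtrl (-1.04 ± 0.12 and -1.10 ± 0.12). CTGF was lower as well (-0.90 ± 0.14 and -1.03 ± 0.14), as was the polarity scaffold DLG5 (-1.09 ± 0.13 and -0.69 ± 0.13). The transmembrane protein CRIM1 (0.98 ± 0.12 and 1.13 ± 0.12) and the Hippo kinase STK3, or MST2 (0.91 ± 0.15 and 0.79 ± 0.15), were higher. The stress-response gene GADD45B (0.74 ± 0.12) was among the highest with shHDAC6-1, and the kinase LATS2 (0.86 ± 0.14) with shHDAC6-2. All of these passed at an edgeR adjusted p of at most 0.000412.

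In replicate 3 each hairpin had a single library, so there is no test, and intervals cover counting error alone. HDAC6 stood at 9.20 CPM with shHDAC6-1 and 11.6 CPM with shHDAC6-2, against 24.9 CPM in shCtrl. Libraries of the HDAC6 hairpins differed from shCtrl by more than 2-fold in 61.1% (shHDAC6-1) and 59% (shHDAC6-2) of genes, so the ratios of replicate 3 are between libraries that stand apart, and HDAC6 knockdown and stock cannot be told apart in them. With either hairpin 4 of the 10 genes (YAP1, WWTR1, TEAD1 and ANKRD1) were more than 2-fold lower and 2 (TEAD2 and AMOTL2) more than 2-fold higher, where 36.5% and 36% of genes were lower by that much and 24.6% and 23% higher. TEAD1 stood at 21.2 CPM with shHDAC6-1 and 21.2 CPM with shHDAC6-2, against 358 CPM in shCtrl, ratios of 0.0594 (95% counting interval 0.0566 to 0.0623) and 0.0591 (0.0558 to 0.0626). YAP1 stood at 39.9 and 43.3 CPM with shHDAC6-1 and shHDAC6-2, against 239 CPM in shCtrl, ratios of 0.167 (0.161 to 0.173) and 0.181 (0.174 to 0.189). WWTR1 stood at 77.9 and 79.3 CPM with shHDAC6-1 and shHDAC6-2, against 249 CPM in shCtrl (ratios 0.313 and 0.318). TEAD2 was higher, at 64.8 and 73.4 CPM with shHDAC6-1 and shHDAC6-2 against 29.8 CPM in shCtrl (ratios 2.18 and 2.46). TEAD3 (ratios of just under 2 and 1.49) and TEAD4 (1.26 and 1.66) were higher too.

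Among targets in replicate 3, ANKRD1 stood at 58.1 and 58.1 CPM with shHDAC6-1 and shHDAC6-2, against 135 CPM in shCtrl (ratios 0.429 and 0.430). AMOTL2 stood at 421 and 340 CPM with shHDAC6-1 and shHDAC6-2, against 167 CPM in shCtrl (ratios 2.53 and 2.04). AXL stood at 968 and 1180 CPM with shHDAC6-1 and shHDAC6-2, against 855 CPM in shCtrl (ratios 1.13 and 1.38). F3 stood at 234 CPM with shHDAC6-1 and 118 CPM with shHDAC6-2, against 142 CPM in shCtrl (ratios 1.64 and 0.829), so the hairpins lay on either side of shCtrl. CYR61, added after its values were seen, stood at 4762 and 3168 CPM with shHDAC6-1 and shHDAC6-2, against 1122 CPM in shCtrl. It was not set beside genes of like GC content, and CTGF is not given for replicate 3. Of the genes called in replicates 1 and 2, YAP1, TEAD2, TEAD3 and AXL lay on the other side of shCtrl from replicates 1 and 2, and ANKRD1 on the same side. TEAD2 led the TEAD level per kb with 41.7% (shHDAC6-1) and 42.4% (shHDAC6-2), against 15.6% in shCtrl, and TEAD1 made up 3.93% and 3.52%, against 54.0% in shCtrl.

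In replicate 3 the log2 ratios of all genes rose with GC content (rank correlation across genes 0.773 with shHDAC6-1 and 0.754 with shHDAC6-2). Genes within 1 percentage point of TEAD1's GC content had median log2 ratios of -2.02 and -2.01, beside -4.07 and -4.08 for TEAD1. For YAP1 the medians of such genes were -1.51 and -1.43, beside -2.58 and -2.46 for YAP1. WWTR1 lay above its like genes, at -1.68 and -1.65 beside medians of -2.15 and -2.15, and ANKRD1 did too, at -1.22 and -1.22 beside -1.57 and -1.51. F3 lay furthest above, at 0.72 and -0.27 beside -1.47 and -1.39. TEAD2 lay at 1.12 and 1.3007 beside 0.94 and 0.87, and TEAD4 below its like genes, at 0.33 and 0.73 beside 1.18 and 1.07. TEAD3 and AXL also lay below their like genes, TEAD3 at 0.999 and 0.572 beside 1.15 and 1.01. AXL stood at 0.180 and 0.465 beside 0.55 and 0.534. AMOTL2 lay above, at 1.338 and 1.028 beside 0.82 and 0.745. The part of GC content in these ratios was not tested.

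**Figure D4:**
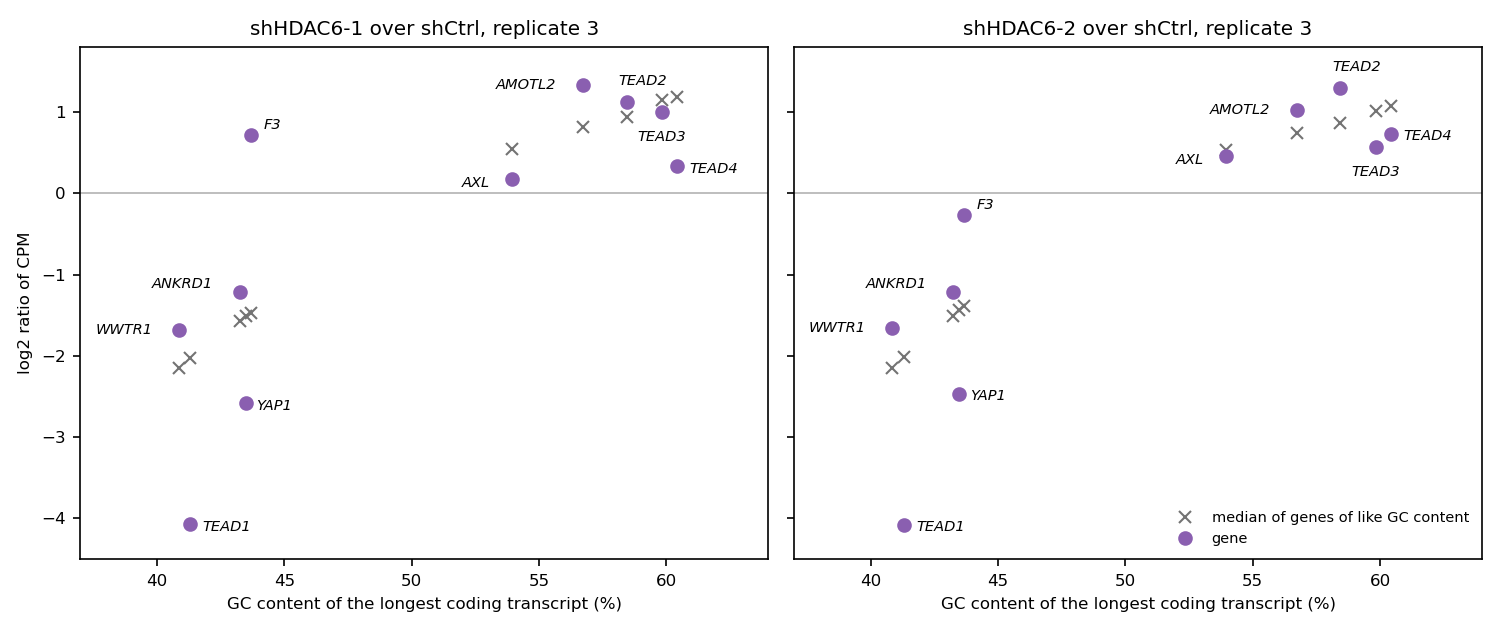
Log2 ratio of CPM, HDAC6 hairpin over shCtrl, in replicate 3 (1 library per group) against the GC content of the longest coding transcript of each gene. Purple points are the 10 genes and grey crosses the median of all genes within 1 percentage point of the same GC content. The crosses climb from -2.15 to 1.18 with shHDAC6-1, and TEAD1, at -4.07, lies under its cross.

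With HPOB and Tubastatin A none of the 10 genes was called. HPOB had 4 of 15338 genes called with edgeR (0.0261%), 1588 with p below 0.05 before adjustment, and 120 with DESeq2. With the replicate block, 7 genes were called with HPOB and 0 with Tubastatin A, and none of the 10 genes was among them. Tubastatin A had 0 called with edgeR (0%), 757 with p below 0.05 before adjustment, and 23 with DESeq2. YAP1 stood at 240, 235 and 190 CPM with HPOB and 257, 195 and 242 CPM with Tubastatin A, against 254, 240 and 252 CPM in DMSO. Its log2 fold changes were -0.17 (95% interval -0.44 to 0.09) with HPOB and -0.11 (-0.37 to 0.15) with Tubastatin A. ANKRD1 stood at 969, 1183 and 990 CPM with HPOB and 900, 965 and 853 CPM with Tubastatin A, against 937, 936 and 874 CPM in DMSO. Its log2 fold changes were 0.19 (-0.04 to 0.42) and -0.02 (-0.25 to 0.21). F3 stood at 1030, 1232 and 891 CPM with HPOB and 959, 951 and 950 CPM with Tubastatin A, against 1016, 990 and 970 CPM in DMSO (0.08, -0.17 to 0.33, and -0.06, -0.31 to 0.19). All HPOB libraries lay above all DMSO libraries for ANKRD1, and all Tubastatin A libraries lay below them for F3. For YAP1 the HPOB libraries lay just below the DMSO libraries, the nearest at 239.7 CPM with HPOB and 240.3 CPM in DMSO, and the Tubastatin A libraries overlapped them.

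Among the other genes TEAD1 had the lowest estimate with HPOB, at 288, 235 and 243 CPM with HPOB against 341, 311 and 323 CPM in DMSO (-0.35, 95% interval -0.64 to -0.07, edgeR adjusted p = 0.439). All HPOB libraries lay under all DMSO libraries, but the difference did not pass the adjustment over all genes. TEAD1 stood at 324, 226 and 292 CPM with Tubastatin A (-0.22, -0.50 to 0.06). For WWTR1 the values were -0.19 (-0.49 to 0.10) with HPOB and -0.24 (-0.53 to 0.06) with Tubastatin A. TEAD2, TEAD3, TEAD4 and AMOTL2 had log2 fold changes of -0.22 (TEAD4 with HPOB) to 0.10 (TEAD3 with Tubastatin A). The medians over the 10 genes were -0.12 and -0.06, beside 0.00663 and 0.01 over all genes.

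AXL set apart 1 library of each compound. It stood at 1618, 1377 and 834 CPM with HPOB and 1578, 682 and 1605 CPM with Tubastatin A, against 1621, 1522 and 1567 CPM in DMSO (-0.30, 95% interval -0.91 to 0.31, and -0.29, -0.90 to 0.32). The same libraries, HPOB replicate 3 and Tubastatin A replicate 2, were also lowest in their groups for YAP1 and WWTR1 (WWTR1 at 73.6 and 66.3 CPM, against 93.8 to 98.8 CPM in DMSO). Their residuals correlated at 0.553 across genes. Residuals were taken from group means, so those of libraries in a group offset each other and the correlations are tied. HPOB replicate 1 correlated with Tubastatin A replicates 1 and 3 at 0.6 and 0.552, and with replicate 2 at -0.71. Whether the value of 0.553 is particular to that pair therefore cannot be told from these correlations. Without HPOB replicate 3 and Tubastatin A replicate 2, AXL stood at log2 fold changes of -0.07 with HPOB and 0.01 with Tubastatin A, YAP1 at -0.07 and -0.01, and 0 of the 10 genes were called with either compound.

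Of the pathway's other genes, 0 of 32 regulators and 0 of 18 other targets were called with HPOB or Tubastatin A. CYR61 stood at 2192 to 2471 CPM with HPOB and 1927 to 2316 CPM with Tubastatin A, against 1722 to 1845 CPM in DMSO (0.42 ± 0.11 and 0.22 ± 0.11, edgeR adjusted p = 0.256 and adjusted p = 0.857). CTGF stood at 445 to 497 CPM with HPOB and 411 to 436 CPM with Tubastatin A, against 354 to 380 CPM in DMSO (0.35 ± 0.09 and 0.20 ± 0.09, edgeR adjusted p = 0.252 and adjusted p = 0.857). Every treated library of both compounds lay above every DMSO library for these genes, and neither passed the test. Both were added after their values were seen, and the list they come from did not rise as a whole. The 18 other targets had median log2 fold changes of -0.101 with HPOB and -0.0145 with Tubastatin A, beside 0.00663 and 0.0143 over all genes. Tubastatin A against HPOB had 0 genes called with edgeR or DESeq2 (0%) and 481 with p below 0.05 before adjustment, with the 10 genes between -0.21 (ANKRD1, 95% interval -0.44 to 0.02) and 0.19 (TEAD4, -0.08 to 0.47). Since the doses of these compounds are not given and Nexturastat A was tested in another experiment, with ANKRD1 at 183 and 232 CPM in its controls, the compounds' values are set side by side only.

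Over the 11 group means of log2 CPM, with replicate 3 of the knockdown apart, the genes most like each member in pattern had Pearson correlations of 0.954 to 0.995 among 11202 genes searched. This is a description over few points that share their stocks. They were MTMR12 for YAP1 (0.989), GYG1 for WWTR1 (0.968), ARHGAP5 for TEAD1 (0.994), UROD for TEAD2 (0.954), C11orf80 for TEAD3 (0.981) and NUP93 for TEAD4 (0.981). For the targets they were SRGN for ANKRD1 (0.988), EHBP1L1 for AMOTL2 (0.994), GPAT2 for AXL (0.995) and VEGFC for F3 (0.991). Between members, AMOTL2 and AXL correlated at 0.945 and ANKRD1 and F3 at 0.941, while TEAD4 ran against ANKRD1 at -0.939 and YAP1 with TEAD1 at 0.905. YAP1 correlated with the targets at 0.076 (AMOTL2) to 0.588 (ANKRD1).

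Exons of TEAD2 share 319 bases with CD37 and those of WWTR1 share 795 bases with WWTR1-AS1, both on the opposite strand and both counted. No source used here gives the strand setting of the counting, so reads in those stretches cannot be told apart.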

How the data were processed

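The deposited values are raw read counts per gene symbol, 1 table per library. Per the submitters' processing notes, which give no order or role, the authors used Trim Galore 0.6.7, STAR 2.7.9a, featureCounts 2.0.3 and DESeq2 1.30.1 with GRCh38. The annotation and strand setting were not given in the sources used here. From the counts, CPM were computed on library totals (31.2 to 85.9 M, where 1 M is 1000000) and edgeR 4.0.16 in R 4.3.3 was run per experiment with TMM factors, filterByExpr (minimum count 10, minimum total 15), a robust quasi-likelihood F test and Benjamini-Hochberg adjustment over all genes tested. The fits were tested on simulated data. Intervals of count ratios are exact at 95% and cover counting error only. Lengths and GC content came from GENCODE 29, which held 90.24% of symbols. Alternatives were DESeq2 1.42.0 and its size factors, other filters, trends on GC content and length removed (splines with 3 degrees of freedom), a replicate block, fewer or more libraries and leaving out each library. The labels do not say whether replicate numbers pair libraries. In the HPOB and Tubastatin A experiment, residuals of libraries with the same number correlated across genes at 0.124 to 0.243 between DMSO and HPOB. The values were 0.103 to 0.147 between DMSO and Tubastatin A and -0.334 to 0.6 between Tubastatin A and HPOB. A pairing by number would have to hold between all of these groups, so the values do not settle whether there was one. The main fits held no replicate block, there or elsewhere. HPOB replicate 3 and Tubastatin A replicate 2 were left out together in an alternative added after seeing the data. Named genes of the pathway lists are up to 3 called genes at each end of a comparison with a control. The members and lists were chosen with earlier results of these data known.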

Additional observations from a re-analysis of the deposited data

Results flagged for a closer look

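Under the HDAC6 hairpins, 4 of the 10 genes had log2 ratios of one sign in both hairpin libraries of replicate 3 and of the other sign in replicates 1 and 2. In replicates 1 and 2, TEAD2 was not called with shHDAC6-2 (-0.21), and its call with shHDAC6-1 and both calls of TEAD3 were lost with trends on GC content and length removed. The difference between the stocks was not tested, since replicate 3 has 1 library per group. The log2 ratio to shCtrl, averaged over both hairpins, differed by -3.06 for YAP1 between replicate 3 and replicates 1 and 2. The same difference was 1.571 for TEAD2, 1.304 for TEAD3 and 1.038 for AXL. Set beside the median of genes of like GC content in replicate 3, AXL and TEAD3 lay lower, as YAP1 did, and TEAD2 higher. So the turned sign of AXL and TEAD3 holds against shCtrl and not against genes of like GC content. Libraries of replicate 3 differed in CDKN2A and IRS4 and followed GC content, as given above, and the part of these in the differences was not tested.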

How the results depend on the processing

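With all 9 knockdown libraries in 1 fit, 0 genes and 0 members were called with either hairpin, and calls turned direction: YAP1 to -0.69 and -0.70, TEAD3 to 0.34 and 0.09234 and AXL to 0.37 and 0.62 (shHDAC6-1 and shHDAC6-2), and TEAD2 to 0.41 with shHDAC6-1. With GC content and length trends removed, shHDAC6-2 had 7442 genes and 7 members called. Genes called with Nexturastat A were 3586 at a mean CPM of at least 5. Between hairpins they were 12 with no filter and 57 with 2 groups alone. With HPOB they were 120 by DESeq2, 14 with no filter, 2 at a mean CPM of at least 5, 29 with trends removed, 15 with 2 groups alone and 20 without HPOB replicate 3 and Tubastatin A replicate 2. With Tubastatin A they were 23 by DESeq2 and 5 with trends removed. The cause was not tested. The replicate block gave 7 genes with HPOB. Together with trends removed, the replicate block gave 7536 genes and 7 members with shHDAC6-2, 7 genes with HPOB and 2 with Tubastatin A. With the replicate block AXL was called lower with Nexturastat A (-1.025), TEAD1 lower with shHDAC6-1 (-0.265) and WWTR1 lower with shHDAC6-2 (-0.30). In the Nexturastat experiment residuals correlated across genes at 0.204 for libraries of the same number and -0.204 for the others. In knockdown replicates 1 and 2 the values for the same number were -0.218 to 0.548. With 2 libraries per group such values mirror each other by construction. This check therefore cannot tell whether the numbers pair libraries there. With the replicate block and trends removed together AMOTL2 was called higher with Nexturastat A (0.29). The replicate block changed no call of the 10 genes with HPOB or Tubastatin A.

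Leaving out each library in turn, genes called ranged from 1781 (without Ctrl replicate 1, and 1921 without Ctrl replicate 2) to 8922 with Nexturastat A, 3160 (without shHDAC6-1 replicate 2, and 3563 without replicate 1) to 5999 with shHDAC6-1, 1 to 66 (without shCtrl replicate 2) between hairpins and 0 (without any DMSO library or HPOB replicate 2) to 78 (without Tubastatin A replicate 2) with HPOB. Members called ranged from 5 to 7 with Nexturastat A, 3 to 5 with shHDAC6-1 and 2 to 4 with shHDAC6-2. Other counts moved by less than 1.5 times. With 2 libraries per group, a library left out leaves an arm of 1 that is assumed to vary like the other groups. Depth did not limit the members, which had at least 320 counts in every library.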
